A study of Homo sapiens with 8 samples.

Results

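The comparison described here is TCF7L2 siRNA at 72 h against TCF7L2 siRNA at 24 h in SW480 cells, a human colorectal cancer line. The 72 h group and the 24 h group held 2 RNA-seq libraries each, so the comparison used 4 of the 8 libraries of the study. Both groups received siRNA against TCF7L2 with a lipid transfection reagent, and both were grown in the same serum-containing medium. The other 4 libraries were 2 of TCF7L2 siRNA at 48 h and 2 of a negative control siRNA labelled 0 h, which serve below for timing and for the estimate of the spread. No control siRNA library at 24 h or 72 h was analysed here, so time in culture after transfection and the action of the siRNA cannot be told apart. The labels describe 3 replicates while 2 libraries per group were analysed, and nothing states that the 2 came from separate cultures, so p-values measure the spread between these libraries only, which may be technical. SW480 is a single line, and the sources used here do not state the siRNA sequence. Total RNA was depleted of ribosomal RNA before sequencing, and expression was given as TPM, a length-corrected share of the transcripts of each library. Of 18656 genes listed, the 11894 with a TPM of at least 1 in at least 2 of the 8 libraries were kept.

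TCF7L2 is a DNA-binding protein of the TCF/LEF family that recruits beta-catenin to Wnt target genes and is the main such factor of the intestinal crypt. In most colorectal cancers, loss of APC keeps beta-catenin stable, and SW480 is a widely used example. A small interfering RNA lowers its target by guiding cleavage of the messenger RNA, and both target and downstream transcripts can change over days. ATF4, a transcription factor that returns below, is translated when the integrated stress response is active and drives genes of amino acid synthesis, amino acid uptake and stress signalling.

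The 72 h libraries were unequal. The listed genes summed to 464493 and 352456 TPM in the first and second 72 h library, against 450056 and 448108 TPM in the 24 h libraries; the other 4 libraries lay between 464051 and 485602 TPM. Each gene was therefore tested on log2(TPM + 1) in 2 limma fits, on the values as deposited and after median-ratio scaling, which divides each library by the median ratio of its genes to their mean profile. The size factors were 1.04 and 0.805 at 72 h, against 1.00 and 0.987 at 24 h. A gene is said to have risen or fallen only where both fits gave a Benjamini-Hochberg adjusted p below 0.05 with the same sign, and the larger adjusted p is the one printed. In the deposited fit the standard error comes from the trend of spread over mean level, shared by all genes of a like level, and does not carry the spread of the gene itself. Changes are log2 differences, 72 h over 24 h, with their standard error, and understate the change of genes near 1 TPM. After scaling, 20 genes were at least 2-fold apart between the 72 h libraries and 11 between the 24 h libraries. Among them were MTRNR2L12, at 0.93 and 404 TPM at 72 h, against 1.18 and 2.12 TPM at 24 h, and MTRNR2L8, at 1.13 and 88.6 TPM at 72 h, against 1.20 and 1.03 TPM at 24 h, chosen after their values were seen. Both are near-copies of the mitochondrial 16S ribosomal RNA, so their reads are uncertain, and neither passed both fits (adjusted p = 0.148 for MTRNR2L12 and 0.105 for MTRNR2L8). The 11 listed MTRNR2L genes together gave 2.95 and 519 TPM at 72 h, against 3.49 and 4.14 TPM at 24 h, and the mitochondrially encoded genes were not analysed here. TPM keep no read depth, so the depth behind each value is unknown.

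Epithelial genes were expressed in both groups. A list of 8 colon epithelial genes, among them the adhesion molecule EPCAM and the keratins KRT8, KRT18 and KRT19, summed to 4220 and 3141 TPM at 72 h, against 3260 and 3260 TPM at 24 h. Those 4 genes gave most of the sum, so it says little about the other members. VIL1 had 179 and 129 TPM at 72 h, against 176 and 164 TPM at 24 h. CDX1 had 1.36 and 0.66 TPM at 72 h, against 1.29 and 1.29 TPM at 24 h. CEACAM5, below 1 TPM in both 24 h libraries, and KRT19 rose, KRT19 not without either 24 h library. A list of 13 genes that mark fibroblasts, blood cells and endothelium summed to 54.1 and 41.2 TPM at 72 h, against 17.4 and 17.2 TPM at 24 h. Of these 13 markers 3 were kept and 2 of them, LUM and COL1A1, rose. COL1A1 was not called without the second 72 h or the first 24 h library (adjusted p = 0.0941 and 0.135). Most of the sum was LUM, the matrix proteoglycan lumican, with 45.01 and 29.6 TPM at 72 h, against 7.5 and 8.53 TPM at 24 h, and LUM rose by 2.06 ± 0.16 as deposited and 2.18 ± 0.095 scaled (adjusted p = 3.36e-07). HBA1, a haemoglobin gene whose close copy HBA2 can share its reads, was the third kept marker, with 3.41 and 4.66 TPM at 72 h, against 7.53 and 5.85 TPM at 24 h. It was not called (adjusted p = 0.0778), but was called lower as deposited (adjusted p = 0.00132) and without the second 72 h library (adjusted p = 0.0135). Of the other 10 markers, HBB reached 1.01 TPM in the second 72 h library and 9, PTPRC, CD3E, PECAM1 and CDH5 among them, stayed under 1 TPM in all 4 libraries, with CD3E at 0 in the second 72 h library. The part of these markers in the results below was not tested.

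TCF7L2 itself was the first gene examined. It measured 4.07 and 3.53 TPM at 72 h, against 5.82 and 5.05 TPM at 24 h, and the groups did not overlap. The change was -0.42 ± 0.17 as deposited and -0.32 ± 0.11 scaled (adjusted p = 0.0371), a fall that is small beside most named below, and leaving out any single library of the 8 ended the call, with adjusted p between 0.0629 and 0.314. LEF1, the family member whose transcription is itself a Wnt target in colorectal cancer, went the other way. It had 56.2 and 50.4 TPM at 72 h, against 19.4 and 17.3 TPM at 24 h, and rose by 1.49 ± 0.16 as deposited and 1.61 ± 0.13 scaled (adjusted p = 1.46e-05). TCF7, the third member kept, had 7.22 and 7.5 TPM at 72 h, against 8.49 and 6.82 TPM at 24 h, with overlapping groups (adjusted p = 0.864). TCF7L1, the repressor of the family, had 0.36 and 0.45 TPM at 72 h, against 0.67 and 0.22 TPM at 24 h, and was not kept.

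Wnt target and feedback genes moved in both directions. Of 30 kept members of this list, 12 rose and 9 fell, against 11.8% of all kept genes called higher and 20.3% called lower. The list's median change was -0.08 as deposited and 0.04 scaled, against -0.11 and 0.00 over all genes. LEF1, CD44 and MMP7 were among the 12, and MMP7, a matrix metalloproteinase, was below 1 TPM in both 24 h libraries. Among the secreted and membrane regulators, FGF20, a growth factor gene, had 84.8 and 67.96 TPM at 72 h, against 29.4 and 24.4 TPM at 24 h, and rose by 1.59 ± 0.082 scaled (adjusted p = 8.27e-07). DKK1, a secreted Wnt antagonist, had 44.5 and 32.5 TPM at 72 h, against 12.6 and 12.99 TPM at 24 h, and rose by 1.62 ± 0.084 scaled (adjusted p = 8.64e-07). RNF43, the ligase that removes Wnt receptors, had 101 and 87.2 TPM at 72 h, against 59.02 and 55.4 TPM at 24 h, and rose by 0.82 ± 0.061 scaled (adjusted p = 0.000133). SOX4, a transcription factor of progenitor cells, had 102 and 80.3 TPM at 72 h, against 48.8 and 48.7 TPM at 24 h, and rose by 1.0 ± 0.045 scaled (adjusted p = 9.21e-07). Each of these 4 genes was higher in both 72 h libraries than in either 24 h library.

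MYC, CCND1 and ASCL2 were 3 of the 9 Wnt list genes that fell. MYC, the growth-promoting transcription factor, had 255 and 210.3 TPM at 72 h, against 351 and 340.3 TPM at 24 h. It fell, with a change of -0.58 ± 0.17 as deposited and -0.45 ± 0.043 scaled (adjusted p = 0.00365). CCND1, which encodes cyclin D1, had 86.7 and 69.4 TPM at 72 h, against 121 and 106 TPM at 24 h. The fall was -0.54 ± 0.16 as deposited and -0.41 ± 0.058 scaled (adjusted p = 0.00524). ASCL2, the master factor of crypt stem cells, had 25.6 and 21.1 TPM at 72 h, against 35.9 and 36.9 TPM at 24 h. Its log2 change, a fall, was -0.62 ± 0.16 as deposited and -0.51 ± 0.061 scaled (adjusted p = 0.000718). In all 3 genes both 72 h libraries were below both 24 h libraries. The MYC call did not hold without the first or the second 24 h library (adjusted p = 0.106 and 0.0752), nor the CCND1 call without the first (adjusted p = 0.192), and fitting the 4 libraries alone ended all 3 calls (adjusted p = 0.139 for MYC, 0.147 for CCND1 and 0.0546 for ASCL2). AXIN2, the feedback scaffold often used as a readout of the pathway, had 178 and 141 TPM at 72 h, against 197 and 202 TPM at 24 h. Its change was -0.33 ± 0.17 as deposited and -0.21 ± 0.046 scaled (adjusted p = 0.112), so it passed one fit alone; the adjusted p was 0.0194 without the first 72 h library and 0.0333 without the second. LGR5, the stem cell receptor, had 0.51 and 0.64 TPM at 72 h, against 0.95 and 0.95 TPM at 24 h, and was not called (adjusted p = 0.17).

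Among the 13 kept genes of the beta-catenin destruction complex and its regulators, 5 fell (38.5%, against 20.3% of all genes) and 1, the ubiquitin ligase subunit BTRC, rose; without either 24 h library 3 fell. BTRC had 9.15 and 6.2 TPM at 72 h, against 5.36 and 5.2 TPM at 24 h, and was not called without the first 72 h library or without any 1 of the 24 h and 0 h libraries, while 2 members rose without the second 72 h library. DVL1 and TNKS were the other members that fell, with TNKS missing the threshold when either 24 h library was omitted (adjusted p = 0.0959 and 0.0634). CSNK1A1, the kinase that primes beta-catenin for degradation, had 62.4 and 47.5 TPM at 72 h, against 102 and 99.1 TPM at 24 h, with a change of -0.75 ± 0.045 scaled (adjusted p = 1.86e-06). AXIN1, the scaffold of the complex, had 12.9 and 9.81 TPM at 72 h, against 20.6 and 17.96 TPM at 24 h, with -0.61 ± 0.076 scaled (adjusted p = 0.000149). APC, the tumour suppressor of the complex, had 5.34 and 4.62 TPM at 72 h, against 8.4 and 8.83 TPM at 24 h, with -0.58 ± 0.10 scaled (adjusted p = 0.00106).

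The promoters of 3 Wnt list genes are shown because the 250 bases before a RefSeq start site hold the TCF/LEF motif, searched on both strands as CTTTG followed by AT, AA, TA or TT. Of 17 list genes with a window in the RefSeq table (GRCh38.p14), 4 held a match, or 23.5%, against 10.8% of the 9631 kept genes with a window. The fourth, TCF7, was not called. Capitals mark the matches, and the sequence reads 5′ to 3′ towards the start site.
DKK1, chr10:52314031-52314280, plus strand: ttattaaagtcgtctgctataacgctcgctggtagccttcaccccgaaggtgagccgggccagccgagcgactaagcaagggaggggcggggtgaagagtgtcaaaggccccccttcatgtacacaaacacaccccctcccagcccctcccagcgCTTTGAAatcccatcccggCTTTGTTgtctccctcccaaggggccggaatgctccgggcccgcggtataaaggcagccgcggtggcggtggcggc
MMP7, chr11:102530748-102530997, minus strand: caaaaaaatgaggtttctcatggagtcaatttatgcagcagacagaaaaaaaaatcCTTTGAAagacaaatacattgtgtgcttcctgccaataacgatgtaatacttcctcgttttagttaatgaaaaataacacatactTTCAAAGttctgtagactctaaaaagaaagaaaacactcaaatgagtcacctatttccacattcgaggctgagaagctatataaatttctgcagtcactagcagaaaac
SP5, chr2:170715087-170715336, plus strand: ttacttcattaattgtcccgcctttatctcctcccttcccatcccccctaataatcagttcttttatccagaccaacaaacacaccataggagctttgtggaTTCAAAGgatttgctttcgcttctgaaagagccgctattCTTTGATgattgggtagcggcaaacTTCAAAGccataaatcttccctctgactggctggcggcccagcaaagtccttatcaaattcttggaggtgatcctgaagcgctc
DKK1 and MMP7 rose, and SP5, a transcription factor of Wnt feedback, fell, with 38.01 and 32.1 TPM at 72 h, against 51.5 and 46.7 TPM at 24 h, and a change of -0.36 ± 0.065 scaled (adjusted p = 0.0125). A match is a run of letters and was not tested for binding.

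Over all kept genes, 1406 rose (11.8%) and 2419 fell (20.3%). The deposited values alone called 1429 higher and 2548 lower, and the scaled values alone 2965 higher and 2992 lower, so the share of calls that were higher was 36.8% in both fits together, 35.9% as deposited and 49.8% scaled. The median change of all genes was -0.11 as deposited and 0.00 scaled. The smallest scaled change among the genes called was therefore 0.49 for a rise and -0.26 for a fall, and counts of rises and falls are not set against each other below. With a change of at least 2-fold in both fits, 243 genes rose (2.04%) and 134 fell (1.13%). Without the first or the second 24 h library, 831 and 769 genes rose and 1091 and 1145 fell; without the second 72 h library 2466 rose and 2103 fell, and without the first 1133 and 2756.

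**Figure D1:**
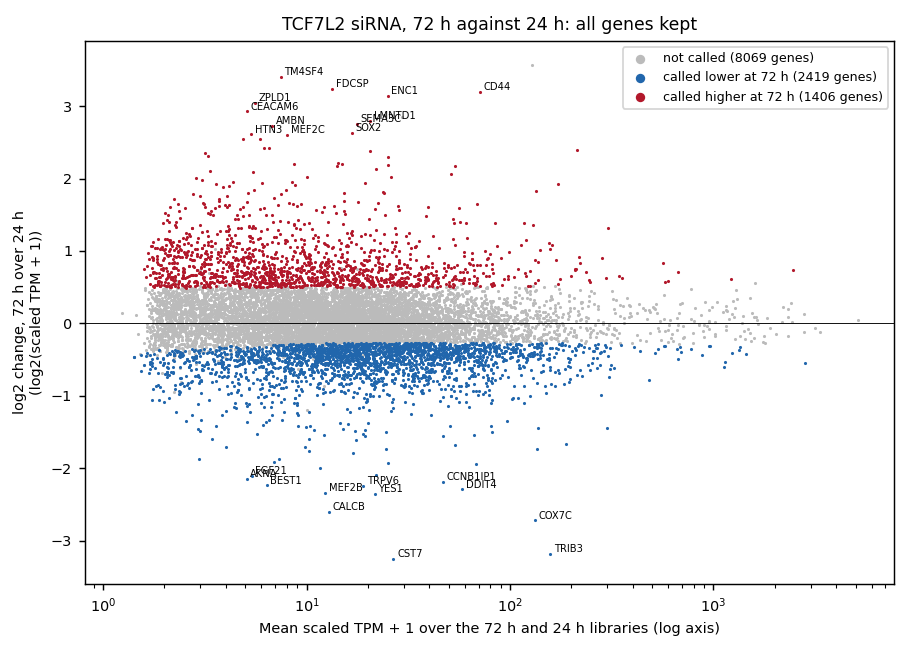
Each point is 1 of the 11894 genes kept; the x axis is the mean scaled TPM + 1 over the 72 h and 24 h libraries on a log axis and the y axis is the log2 change, 72 h over 24 h. The 1406 genes that rose and the 2419 that fell are coloured, and the largest changes extend past 3 in either direction.

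The largest rises were ranked among genes of at least 5 TPM in the higher group whose libraries did not overlap, a rule that 948 risen genes met. CD44, a cell surface receptor for hyaluronan, had 114 and 117 TPM at 72 h, against 14.1 and 11.7 TPM at 24 h. It rose by 3.07 ± 0.16 as deposited and 3.2 ± 0.13 scaled (adjusted p = 2.36e-07), and was the most abundant of the 12 at 72 h. TM4SF4, a tetraspanin-like membrane protein, had 12.7 and 10.5 TPM at 72 h, against 0.27 and 0.32 TPM at 24 h. The rise was 3.28 ± 0.17 as deposited and 3.4 ± 0.15 scaled (adjusted p = 4.5e-07). CEACAM6, a surface adhesion molecule that is often high in colorectal tumours, had 7.86 and 6.73 TPM at 72 h, against 0.21 and 0.15 TPM at 24 h, and rose by 2.93 ± 0.11 scaled (adjusted p = 1.68e-07). ZPLD1, a membrane protein with a zona pellucida domain, had 9.26 and 7.25 TPM at 72 h, against 0.19 and 0.22 TPM at 24 h, and rose by 3.05 ± 0.12 scaled (adjusted p = 1.6e-07). SEMA3C, a secreted guidance ligand of the semaphorin family, had 32.05 and 23.1 TPM at 72 h, against 3.39 and 3.69 TPM at 24 h, and rose by 2.76 ± 0.11 scaled (adjusted p = 1.61e-07). In TM4SF4, CEACAM6 and ZPLD1 both 24 h libraries were below 1 TPM, so the change spans the point where the pseudocount of 1 weighs most.

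Transcription factors and intracellular proteins were also among the 12. SOX2, a stem cell factor of the foregut and nervous system, had 28.1 and 22.9 TPM at 72 h, against 3.48 and 3.78 TPM at 24 h. Its change was 2.51 ± 0.16 as deposited and 2.63 ± 0.11 scaled (adjusted p = 3.28e-07). MEF2C, a factor of muscle, neurons and endothelium, had 12.9 and 10.5 TPM at 72 h, against 1 and 1.53 TPM at 24 h, and rose by 2.61 ± 0.13 scaled (adjusted p = 6.61e-07). ENC1, a kelch protein that binds actin and is a reported beta-catenin target in colorectal cancer, had 46.4 and 34.6 TPM at 72 h, against 3.57 and 4.58 TPM at 24 h, and rose by 3.15 ± 0.11 scaled (adjusted p = 7.44e-08). LMNTD1, which encodes a protein with a lamin tail domain, had 36.3 and 28.2 TPM at 72 h, against 4.22 and 4.12 TPM at 24 h, and rose by 2.79 ± 0.079 scaled (adjusted p = 2.63e-08). In these 4 genes the separation of the 72 h and 24 h libraries was required by the ranking rule, so nothing is read from it. Of 8 kept SOX factors, 3 rose (37.5%, against 11.8% of all genes) and none fell; the third beside SOX2 and SOX4 was SOX5, with 6.82 and 4.77 TPM at 72 h, against 2.73 and 1.61 TPM at 24 h.

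The remaining 3 of the 12 belong to a single gene cluster that encodes secreted calcium-binding phosphoproteins of enamel, milk and saliva. FDCSP, a small peptide secreted by follicular dendritic cells and gingiva, had 25.2 and 17.7 TPM at 72 h, against 1.07 and 2.15 TPM at 24 h. It rose by 3.12 ± 0.17 as deposited and 3.23 ± 0.18 scaled (adjusted p = 1.26e-06). AMBN, the enamel matrix protein ameloblastin, had 10.8 and 8.86 TPM at 72 h, against 0.77 and 0.77 TPM at 24 h, and rose by 2.72 ± 0.10 scaled (adjusted p = 1.45e-07). HTN3, a salivary histatin, had 9.24 and 6.03 TPM at 72 h, against 0.42 and 0.59 TPM at 24 h, and rose by 2.61 ± 0.16 scaled (adjusted p = 1.86e-06); its near-identical neighbour HTN1 can share its reads, so the split between them is uncertain. CSN1S1, a milk casein, had 3.75 and 2.86 TPM at 72 h, against 0.18 and 0.1 TPM at 24 h, with a change of 2.01 ± 0.14 scaled (adjusted p = 5.15e-06). This list has 23 members in the data, of which 8 were kept, and 6 of these were below 1 TPM in both 24 h libraries, so they passed the filter through later libraries, and nothing is read from their shared direction. The other 15 members did not pass the filter.

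Of the 12 largest falls, ranked by the same rule among 2142 fallen genes, TRIB3, DDIT4 and FGF21 are genes of the ATF4 response and are described with it. CST7, which encodes the protease inhibitor cystatin F, had 4.53 and 3.06 TPM at 72 h, against 48.6 and 45.6 TPM at 24 h. It fell, with a change of -3.34 ± 0.16 as deposited and -3.25 ± 0.077 scaled (adjusted p = 1.27e-08). COX7C, part of respiratory complex IV, had 36.2 and 26.6 TPM at 72 h, against 225 and 231 TPM at 24 h. The fall was -2.84 ± 0.16 as deposited and -2.72 ± 0.046 scaled (adjusted p = 1.17e-09); processed copies of COX7C can share its reads. CALCB, a calcitonin gene-related neuropeptide, had 3.12 and 1.83 TPM at 72 h, against 19.8 and 22.1 TPM at 24 h, and fell, with -2.6 ± 0.11 scaled (adjusted p = 2.84e-07). YES1, a SRC-family tyrosine kinase, had 6.39 and 4.84 TPM at 72 h, against 34.4 and 35.6 TPM at 24 h, and fell, with -2.35 ± 0.072 scaled (adjusted p = 4.23e-08). The ranking rule required libraries that do not overlap, so nothing is read from the separation of the groups in these 4 genes.

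The other 5 were a transcription factor, a pair of channels and a pair of proteins of the nucleus or centrosome. MEF2B had 1.87 and 3.82 TPM at 72 h, against 20.5 and 18.1 TPM at 24 h. Its log2 change, a fall, was -2.45 ± 0.16 as deposited and -2.34 ± 0.26 scaled (adjusted p = 6.94e-05); a readthrough transcript overlaps MEF2B, and its reads cannot be told apart here. TRPV6, the epithelial calcium channel, had 6.06 and 4.31 TPM at 72 h, against 31.1 and 29.3 TPM at 24 h, and fell, with -2.25 ± 0.068 scaled (adjusted p = 4.23e-08). BEST1, a calcium-gated anion channel, had 1.32 and 0.96 TPM at 72 h, against 9.6 and 9.35 TPM at 24 h, and fell, with -2.24 ± 0.090 scaled (adjusted p = 2.3e-07). CCNB1IP1, a ubiquitin ligase that binds cyclin B, had 16.8 and 12.5 TPM at 72 h, against 73.3 and 77.3 TPM at 24 h, and fell, with -2.19 ± 0.060 scaled (adjusted p = 2.57e-08). AKNA, a centrosomal and AT-hook protein, had 0.91 and 0.7 TPM at 72 h, against 7.28 and 7.22 TPM at 24 h, and fell, with -2.15 ± 0.091 scaled (adjusted p = 2.84e-07).

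**Figure D2:**
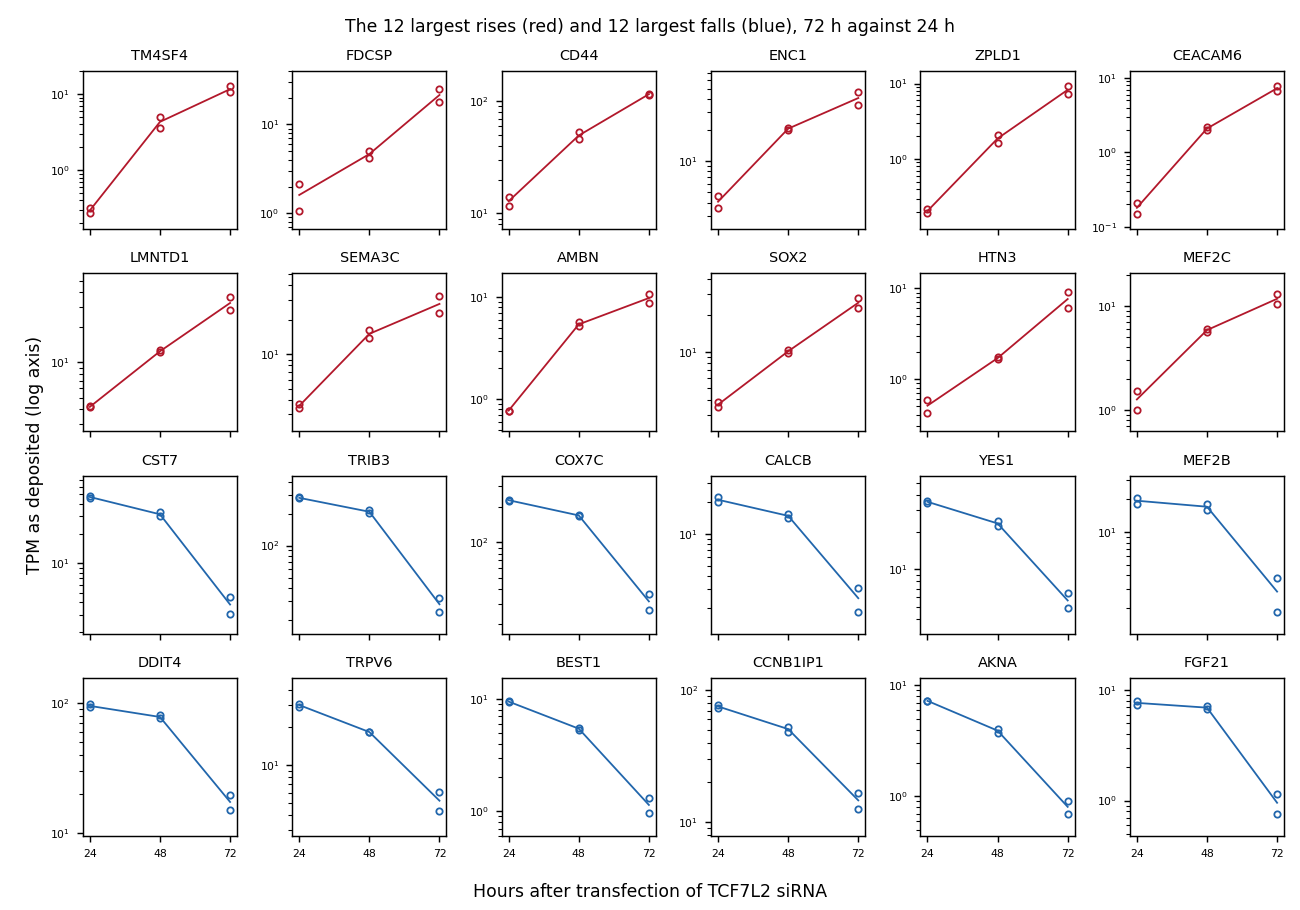
TPM as deposited on a log axis against hours after transfection of TCF7L2 siRNA, 1 panel per gene and 1 point per library, with a line through the group means; risen genes are red and fallen genes blue. CD44 reaches 114 and 117 TPM at 72 h and TRIB3 lies at 32.4 and 23.6 TPM. In each of the 24 panels the 72 h points lie apart from the 24 h points, which the ranking rule required.

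The genes of the ATF4 response had the largest share of members called lower of the lists described, 90.9%. Of 33 kept members 30 fell and none rose, against 20.3% of all genes called lower. In 30 members both 72 h libraries were below both 24 h libraries. The share of all genes with that order is not given here, so nothing is read from this second count. The median change was -1.03 as deposited and -0.91 scaled, against -0.11 and 0.00 over all genes, and the scaled falls ran from -0.27 to -3.18. The scaled values alone also gave 30 falls. The count was 30 without the first or the second 72 h library and 27 without any 1 of the other 6 libraries. With a change of at least 2-fold in both fits it was 11.

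ATF4 itself fell. It had 264 and 204 TPM at 72 h, against 386 and 393 TPM at 24 h, with a change of -0.74 ± 0.17 as deposited and -0.62 ± 0.040 scaled (adjusted p = 0.00012). DDIT3, the pro-apoptotic factor CHOP, had 11.3 and 10.2 TPM at 72 h, against 35.2 and 34.8 TPM at 24 h, with -1.5 ± 0.072 scaled (adjusted p = 5.43e-07). CEBPG, which pairs with ATF4 on DNA, had 28.6 and 20.7 TPM at 72 h, against 70.4 and 75.05 TPM at 24 h, with -1.42 ± 0.058 scaled (adjusted p = 2.41e-07). TRIB3, a pseudokinase that ATF4 and CHOP induce, showed the largest fall of the list, with 32.4 and 23.6 TPM at 72 h, against 277 and 285 TPM at 24 h, and a change of -3.3 ± 0.16 as deposited and -3.18 ± 0.050 scaled (adjusted p = 1.13e-09). DDIT4, an inhibitor of mTORC1 signalling, had 19.6 and 15.1 TPM at 72 h, against 92.8 and 97.8 TPM at 24 h, with -2.41 ± 0.16 as deposited and -2.29 ± 0.055 scaled (adjusted p = 1.27e-08). ATF4 and DDIT3, and the synthesis and transport genes that follow, were chosen for their roles after their values were seen.

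Among secreted products of the response, FGF21, GDF15 and INHBE fell. FGF21, a metabolic hormone, had 1.15 and 0.76 TPM at 72 h, against 7.28 and 8.05 TPM at 24 h, with -2.15 ± 0.16 as deposited and -2.1 ± 0.10 scaled (adjusted p = 5.74e-07). GDF15, a stress-induced TGF-beta family cytokine, had 4.37 and 2.51 TPM at 72 h, against 17.2 and 17.7 TPM at 24 h, with -2.0 ± 0.11 scaled (adjusted p = 8.93e-07). INHBE, an activin subunit, had 10.4 and 7.09 TPM at 72 h, against 40.0 and 37.04 TPM at 24 h, with -1.93 ± 0.081 scaled (adjusted p = 2.64e-07). In GDF15 and INHBE both 72 h libraries were below both 24 h libraries, and for FGF21 the ranking rule required this.

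ASNS, PHGDH, MTHFD2 and SLC7A5 act in amino acid synthesis and uptake and in one-carbon metabolism. ASNS, asparagine synthetase, had 237 and 183 TPM at 72 h, against 367 and 389 TPM at 24 h, with -0.73 ± 0.047 scaled (adjusted p = 6.66e-06). The serine synthesis enzyme PHGDH had 32.7 and 24.2 TPM at 72 h, against 60.1 and 56.9 TPM at 24 h, with -0.91 ± 0.052 scaled (adjusted p = 1.41e-06). MTHFD2, a mitochondrial enzyme of one-carbon metabolism, had 197 and 148 TPM at 72 h, against 365 and 377 TPM at 24 h, with -0.99 ± 0.045 scaled (adjusted p = 4.5e-07). SLC7A5, the large neutral amino acid transporter, had 239 and 206 TPM at 72 h, against 307 and 284 TPM at 24 h, with -0.29 ± 0.056 scaled (adjusted p = 0.0459), close to the threshold. SLC7A5, SLC38A2 and SLC1A5 were the 3 members not called without any 1 of the 24 h, 48 h and 0 h libraries, with adjusted p up to 0.344, 0.272 and 0.224. The 3 kept members that were not called were VLDLR, with 1.65 and 1.27 TPM at 72 h, against 1.47 and 1.6 TPM at 24 h, JDP2, with 15.7 and 13.7 TPM at 72 h, against 17.1 and 14.4 TPM at 24 h, and SLC7A11, the cystine transporter, with 18.3 and 14.98 TPM at 72 h, against 17.8 and 20.03 TPM at 24 h.

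**Figure D3:**
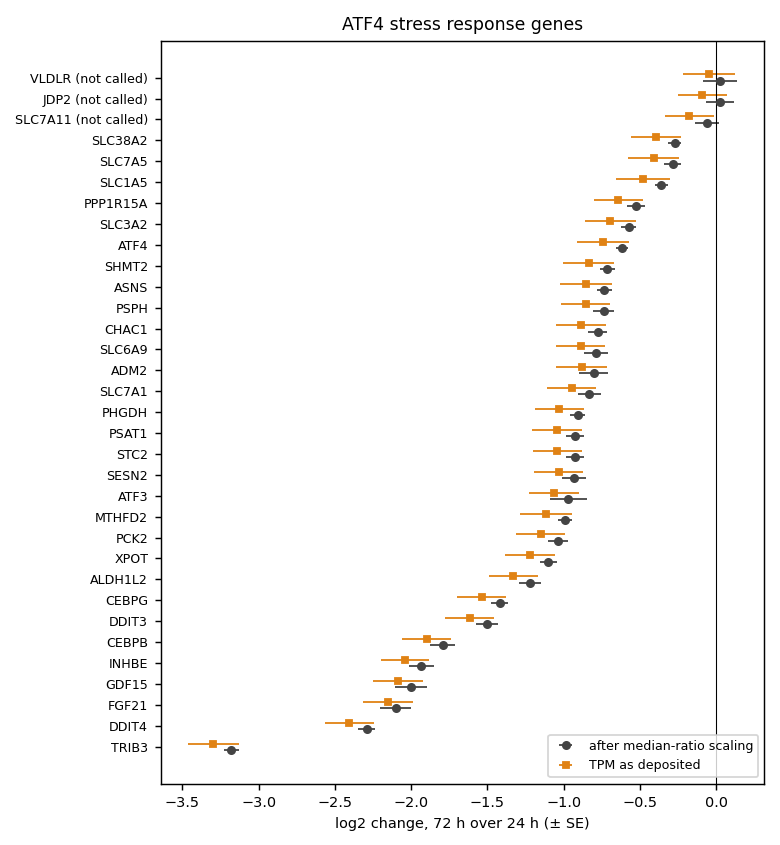
The log2 change, 72 h over 24 h, of the 33 kept ATF4 response genes with its standard error, as deposited and after scaling. TRIB3 lies furthest to the left at -3.30 as deposited and -3.18 scaled, 30 genes were called lower, and VLDLR, JDP2 and SLC7A11 lie near 0.

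The promoters of 6 fallen genes of this list are shown because they hold a match to the composite C/EBP-ATF element, the kind of site ATF4 binds, searched as TGATGNAA on both strands in the 250 bases before each RefSeq start. A match was found in 7 of 28 list genes with a window (25%) and in 6 of the 26 that fell (23.1%), against 2.22% of kept genes and 3.89% of all 27305 RefSeq genes in the table. The seventh was JDP2, which was not called. Capitals mark the match on either strand.
CEBPG, chr19:33373863-33374112, plus strand: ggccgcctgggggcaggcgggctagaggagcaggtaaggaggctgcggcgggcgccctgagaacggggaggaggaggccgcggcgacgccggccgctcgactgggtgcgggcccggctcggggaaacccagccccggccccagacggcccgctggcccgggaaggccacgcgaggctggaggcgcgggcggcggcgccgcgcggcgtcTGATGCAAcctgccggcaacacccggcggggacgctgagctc
FGF21, chr19:48755274-48755523, plus strand: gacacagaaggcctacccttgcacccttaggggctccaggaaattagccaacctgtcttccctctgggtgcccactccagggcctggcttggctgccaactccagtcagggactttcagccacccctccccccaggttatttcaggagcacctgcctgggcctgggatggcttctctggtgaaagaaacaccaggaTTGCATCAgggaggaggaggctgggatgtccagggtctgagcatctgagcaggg
ASNS, chr7:97872409-97872658, minus strand: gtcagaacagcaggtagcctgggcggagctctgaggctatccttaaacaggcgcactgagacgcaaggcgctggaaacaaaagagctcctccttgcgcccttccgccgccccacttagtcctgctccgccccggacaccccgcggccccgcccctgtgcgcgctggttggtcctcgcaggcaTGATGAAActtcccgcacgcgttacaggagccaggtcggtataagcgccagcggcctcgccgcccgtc
CHAC1, chr15:40953221-40953470, plus strand: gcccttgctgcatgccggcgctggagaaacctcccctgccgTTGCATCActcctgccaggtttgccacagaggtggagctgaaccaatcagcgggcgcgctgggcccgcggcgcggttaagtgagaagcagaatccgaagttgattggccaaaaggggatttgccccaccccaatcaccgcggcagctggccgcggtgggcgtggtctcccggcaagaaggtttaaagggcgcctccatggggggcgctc
ATF3, chr1:212565157-212565406, plus strand: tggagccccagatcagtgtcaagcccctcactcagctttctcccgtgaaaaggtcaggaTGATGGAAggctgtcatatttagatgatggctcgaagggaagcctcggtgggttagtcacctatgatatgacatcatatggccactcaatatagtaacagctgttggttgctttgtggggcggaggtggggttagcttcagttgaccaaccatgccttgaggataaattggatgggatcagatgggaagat
SLC1A5, chr19:46784815-46785064, minus strand: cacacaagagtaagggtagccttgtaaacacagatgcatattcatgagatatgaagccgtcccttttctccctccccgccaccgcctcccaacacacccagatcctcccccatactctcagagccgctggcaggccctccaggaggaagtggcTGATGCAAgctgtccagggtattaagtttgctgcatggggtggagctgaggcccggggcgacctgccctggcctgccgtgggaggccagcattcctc
The match started 42 bases before the start site in CEBPG, 54 in FGF21 and 68 in ASNS. CHAC1, a glutathione-degrading enzyme, had 8.9 and 7.09 TPM at 72 h, against 15.6 and 15.6 TPM at 24 h, with -0.78 ± 0.065 scaled (adjusted p = 1.44e-05). ATF3, a stress-induced repressor, had 3.94 and 2.72 TPM at 72 h, against 7.14 and 8.83 TPM at 24 h, with -0.97 ± 0.12 scaled (adjusted p = 0.000166). SLC1A5, the glutamine transporter, had 681 and 563 TPM at 72 h, against 882 and 850.1 TPM at 24 h, with -0.36 ± 0.042 scaled (adjusted p = 0.0234). The other 20 fallen genes with a window, TRIB3 and DDIT4 among them, held no such letters there, from which nothing follows about the factor, and 4 had no window in the table.

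Some genes of DNA replication and division fell. Of 52 kept S-phase genes 20 fell, and of 47 kept G2/M genes 24 fell; these are 38.5% and 51.1%, against 20.3% of all genes called lower. None of either list rose in both fits, and 3 of each rose on the scaled values alone. The median scaled changes were -0.21 and -0.27. TK1, the S-phase thymidine kinase, had 15.8 and 12.8 TPM at 72 h, against 27.8 and 27.3 TPM at 24 h, with -0.79 ± 0.058 scaled (adjusted p = 6.76e-06), and PRIM1, the DNA primase, had 16.9 and 13.8 TPM at 72 h, against 23.8 and 24.8 TPM at 24 h, with -0.52 ± 0.072 scaled (adjusted p = 0.000524). MAD2L1, a spindle checkpoint protein, had 16.5 and 12.7 TPM at 72 h, against 31.9 and 37.5 TPM at 24 h, with -1.09 ± 0.092 scaled (adjusted p = 1.61e-05). CDC20, which activates the anaphase-promoting complex, had 33.2 and 24.7 TPM at 72 h, against 50.4 and 50.6 TPM at 24 h, with -0.68 ± 0.056 scaled (adjusted p = 1.43e-05). TOP2A, the topoisomerase of dividing cells, had 51.4 and 39.8 TPM at 72 h, against 75.5 and 81.7 TPM at 24 h, with -0.66 ± 0.059 scaled (adjusted p = 2.18e-05). Without the second 72 h library 3 S-phase and 2 G2/M genes rose, and without the first 1 G2/M gene rose. The counts of falls rest on the 24 h pair, and both were much lower without its first or second library. The share of S-phase genes called lower was then close to that of all genes, while that of G2/M genes stayed above it. S-phase falls were also fewer without any 1 of the 48 h or 0 h libraries.

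Genes named as cyclin-dependent kinase inhibitors moved both ways, 3 up and 3 down. CDKN2A, the locus of p16 and ARF, had 55.5 and 52.9 TPM at 72 h, against 28.8 and 27.4 TPM at 24 h, and rose by 1.05 ± 0.094 scaled (adjusted p = 2.24e-05). Its neighbour CDKN2B had 27.4 and 20.9 TPM at 72 h, against 13.9 and 11.5 TPM at 24 h, and rose by 0.99 ± 0.093 scaled (adjusted p = 2.92e-05); an antisense gene overlaps the pair, and no source used here states the strand of the reads. CDKN1A, which encodes p21, had 15.5 and 11.6 TPM at 72 h, against 7.98 and 7.77 TPM at 24 h, and rose by 0.82 ± 0.070 scaled (adjusted p = 0.000136). CDK4, the partner of cyclin D1, had 62.9 and 50.3 TPM at 72 h, against 94.7 and 88.9 TPM at 24 h, and fell, with -0.57 ± 0.062 scaled (adjusted p = 0.000169). Of 24 kept G1 genes 4 rose (16.7%, against 11.8% of all genes), TFDP2 being the fourth. Another 5 fell (20.8%, against 20.3% of all genes), CDK4 and CCND1 with CDKN1C, CDKN2D and CDKN3, which are named as inhibitors. These shares are near those of all genes, so nothing is read from them. More G1 genes rose without the second 72 h library, and fewer fell without either 24 h library.

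Falls were called in 39.2% of ribosome biogenesis factors and 57.7% of mitochondrial ribosomal proteins, against 20.3% of all genes, while the 16.7% of cytosolic ribosomal proteins lay below that share. Of 51 ribosome biogenesis factors 20 fell, none rose, and the scaled values alone gave 32 falls and 5 rises. DDX21, a nucleolar RNA helicase, had 53.6 and 39.4 TPM at 72 h, against 95.1 and 99.6 TPM at 24 h, with -0.94 ± 0.053 scaled (adjusted p = 1.27e-06). Of 78 mitochondrial ribosomal proteins 45 fell, none rose, and the scaled values alone gave 51 falls and 5 rises, with a median scaled change of -0.33. MRPL21, a protein of the large mitochondrial subunit, had 51.1 and 43.5 TPM at 72 h, against 104.6 and 101 TPM at 24 h, with -0.99 ± 0.056 scaled (adjusted p = 1.34e-06), and MRPL42 had 56.3 and 42.5 TPM at 72 h, against 95.3 and 100.03 TPM at 24 h, with -0.86 ± 0.050 scaled (adjusted p = 1.52e-06). Of 78 cytosolic ribosomal proteins, whose many pseudogene copies make their counts uncertain, 13 fell, and the scaled values alone gave 29 falls and 17 rises. Without the first or second 24 h library the falls numbered 3 and 4 for biogenesis factors. They numbered 16 and 17 for mitochondrial and 2 and 0 for cytosolic ribosomal proteins, against 1091 and 1145 over all genes. The share of biogenesis factors called lower was then below that of all genes, so its excess did not hold. The share of mitochondrial ribosomal proteins stayed above that of all genes. Biogenesis factors gave 11 falls without any 1 of the 48 h or 0 h libraries. Cytosolic ribosomal proteins gave 34 without the first 72 h library, 4 without either 48 h library and 6 without either 0 h library. Without the second 72 h library 23 cytosolic ribosomal proteins rose and 19 fell, and 5 biogenesis factors and 3 mitochondrial ribosomal proteins rose.

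In the respiratory chain, 22 of 50 kept subunits of complexes I to III fell and 2, NDUFA3 and NDUFB10 of complex I, rose. These are 44% and 4%, against 20.3% of all genes called lower and 11.8% called higher. NDUFA9, of complex I, had 92.6 and 61.7 TPM at 72 h, against 163 and 167 TPM at 24 h, with -1.0 ± 0.068 scaled (adjusted p = 4.37e-06). CYC1, the cytochrome c1 of complex III, had 61.3 and 44.4 TPM at 72 h, against 98.03 and 95.2 TPM at 24 h, with -0.75 ± 0.049 scaled (adjusted p = 3.34e-06). Of 13 kept cytochrome c oxidase genes, 4 fell (30.8%) and 1 rose (7.69%). COX7C, above, had the largest fall, the others being COX5A (adjusted p = 0.0553 and 0.0914 without the first and second 24 h library), COX5B and COX8A, while COX6B2, a testis-enriched isoform of a COX6B subunit, had 18.5 and 17.1 TPM at 72 h, against 5.2 and 6.14 TPM at 24 h. The rise was 1.5 ± 0.16 as deposited and 1.62 ± 0.11 scaled (adjusted p = 4.69e-06). Without the first or second 24 h library, 11 and 7 subunits of complexes I to III and 2 and 2 oxidase genes fell, and no subunit of complexes I to III rose without any 1 of the 24 h, 48 h or 0 h libraries. Without the second 72 h library 5 such subunits and 4 oxidase genes rose, and without the first 7 oxidase genes fell.

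SLC2A1, the glucose transporter GLUT1, had 94.1 and 70.5 TPM at 72 h, against 297 and 272 TPM at 24 h. It fell, with a change of -1.79 ± 0.17 as deposited and -1.67 ± 0.047 scaled (adjusted p = 2.63e-08). Of 34 kept glycolysis and hypoxia genes 11 fell and 1 rose (6 and 7 fell without the first and second 24 h library, and 2 and 5 rose without the first and second 72 h library). The falls are 32.4% of the list, against 20.3% of all genes. The 1 that rose was ADM, the peptide adrenomedullin, with 4.53 and 2.66 TPM at 72 h, against 1.3 and 1.15 TPM at 24 h. VEGFA, the angiogenic factor, had 24.8 and 18.1 TPM at 72 h, against 40.8 and 43.9 TPM at 24 h, and fell, with -0.85 ± 0.084 scaled (adjusted p = 3.75e-05). ACSL5, a fatty acyl-CoA ligase of the intestine, had 24.2 and 18.9 TPM at 72 h, against 4.32 and 4.26 TPM at 24 h. Its change was 2.08 ± 0.16 as deposited and 2.2 ± 0.090 scaled (adjusted p = 2.41e-07). MLXIPL, the sugar-sensing factor ChREBP, had 11.6 and 9.73 TPM at 72 h, against 27.4 and 23.8 TPM at 24 h, and fell, with -1.08 ± 0.086 scaled (adjusted p = 1.14e-05), and SCD, the stearoyl-CoA desaturase, had 58.5 and 47.0 TPM at 72 h, against 95.7 and 92.4 TPM at 24 h, and fell, with -0.71 ± 0.045 scaled (adjusted p = 4.51e-06). INSIG1, the sterol sensor partner, had 23.5 and 17.7 TPM at 72 h, against 8.46 and 9.08 TPM at 24 h, and rose by 1.25 ± 0.074 scaled (adjusted p = 1.8e-06). Of 23 kept nucleotide synthesis enzymes 9 fell (39.1%) and none rose, among them SHMT2, a one-carbon enzyme, with 162 and 133 TPM at 72 h, against 273 and 252 TPM at 24 h; 5 fell without the second 24 h library or without any 1 of the 48 h or 0 h libraries. Among lysosomal genes 10 of 37 rose (27%, against 11.8% of all genes) and 1, LAMP2, fell, and NPC2, the cholesterol carrier, had 54.4 and 34.7 TPM at 72 h, against 22.6 and 19.6 TPM at 24 h, with 1.13 ± 0.093 scaled (adjusted p = 1.38e-05). The lysosomal rises numbered 20 without the second 72 h library and 5 and 4 without the first and second 24 h library, and 2 fell without the first 72 h library.

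Epithelial surface genes moved in both directions. Of the 5 kept CEACAM genes 3 rose, 1 fell and CEACAM19 was not called. CEACAM5 and CEACAM6 were below 1 TPM in both 24 h libraries and passed the filter through other libraries, so nothing is read from this count. CEACAM5, the tumour marker CEA, had 4.59 and 3.36 TPM at 72 h, against 0.05 and 0.02 TPM at 24 h, and rose by 2.36 ± 0.12 scaled (adjusted p = 8.47e-07), and CEACAM1 had 10.8 and 10.9 TPM at 72 h, against 3.3 and 2.92 TPM at 24 h, and rose by 1.65 ± 0.12 scaled (adjusted p = 7.06e-06). CEACAM21 had 6.46 and 6.44 TPM at 72 h, against 19.9 and 22.1 TPM at 24 h, and fell, with -1.45 ± 0.11 scaled (adjusted p = 6.97e-06). The family's close sequence similarity makes the split of reads among its members uncertain. MUC13, a membrane mucin, had 34.6 and 31.1 TPM at 72 h, against 9.55 and 9.41 TPM at 24 h, and rose by 1.81 ± 0.086 scaled (adjusted p = 5.43e-07). TFF3, the trefoil peptide of goblet cells, had 10.5 and 11.1 TPM at 72 h, against 24.2 and 26.6 TPM at 24 h, and fell, with -1.05 ± 0.14 scaled (adjusted p = 0.000267). KRT20, a keratin of mature colonocytes, had 2.98 and 2.59 TPM at 72 h, against 0.66 and 0.92 TPM at 24 h, and rose by 1.18 ± 0.12 scaled (adjusted p = 5.56e-05).

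The desmosomal cadherins DSG3, with 11.8 and 9.03 TPM at 72 h, against 2.33 and 2.53 TPM at 24 h, and DSC2, with 22.6 and 17.3 TPM at 72 h, against 6.47 and 6.91 TPM at 24 h, rose. Their changes were 1.84 ± 0.091 scaled (adjusted p = 6.61e-07) for DSG3 and 1.55 ± 0.081 scaled (adjusted p = 8.67e-07) for DSC2. The tight junction claudins CLDN7, with 74.5 and 60.2 TPM at 72 h, against 129 and 138 TPM at 24 h, and CLDN1, with 16.4 and 13.5 TPM at 72 h, against 28.3 and 27.6 TPM at 24 h, fell. Their changes were -0.87 ± 0.059 scaled (adjusted p = 4.24e-06) for CLDN7 and -0.75 ± 0.068 scaled (adjusted p = 2.39e-05) for CLDN1. COL17A1, the hemidesmosomal collagen, had 8.19 and 5.35 TPM at 72 h, against 0.51 and 0.32 TPM at 24 h, and rose by 2.55 ± 0.15 scaled (adjusted p = 2.06e-06). LAMC1, a laminin chain, had 45.2 and 30.8 TPM at 72 h, against 21.2 and 22.0 TPM at 24 h, and rose by 0.88 ± 0.11 scaled (adjusted p = 0.000164), while LAMB3, a chain of laminin-332, had 58.8 and 41.3 TPM at 72 h, against 97.3 and 95.0 TPM at 24 h, and fell, with -0.83 ± 0.056 scaled (adjusted p = 3.82e-06). Of 25 kept laminins, collagens and integrins 10 rose and 3 fell, COL4A2 and COL18A1 beside LAMB3; without the first or second 24 h library 4 and 5 rose, and without the first 1 fell. The rises are 40% of the list, against 11.8% of all genes, and 2 of the 10 were below 1 TPM in both 24 h libraries. PLAUR, the urokinase receptor, had 30.6 and 20.8 TPM at 72 h, against 11.4 and 11.1 TPM at 24 h, and rose by 1.22 ± 0.082 scaled (adjusted p = 3.89e-06), and TIMP1, a metalloproteinase inhibitor, had 72.6 and 59.4 TPM at 72 h, against 32.2 and 30.3 TPM at 24 h, and rose by 1.17 ± 0.054 scaled (adjusted p = 4.58e-07).

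Of 16 kept mesenchymal genes 7 rose and 3, SNAI2, S100A4 and L1CAM, fell, with 7 to 9 rises and 2 or 3 falls when any single library was left out. These are 43.8% and 18.8%, against 11.8% and 20.3% of all genes. VIM, the intermediate filament vimentin, had 26.9 and 21.5 TPM at 72 h, against 7.1 and 7.88 TPM at 24 h. It rose by 1.56 ± 0.16 as deposited and 1.68 ± 0.085 scaled (adjusted p = 7.53e-07). CDH11, a mesenchymal cadherin, had 41.2 and 29.01 TPM at 72 h, against 15.2 and 13.8 TPM at 24 h, and rose by 1.32 ± 0.075 scaled (adjusted p = 1.46e-06). Of 3 factors that drive epithelial-mesenchymal transition, SNAI2 fell and ZEB1 and SNAI1 were not called. SNAI2, chosen with the next 2 for its role after its values were seen, had 1.47 and 1.25 TPM at 72 h, against 3.46 and 3.25 TPM at 24 h, and fell, with -0.81 ± 0.11 scaled (adjusted p = 0.000269). ZEB1 had 3.63 and 3.15 TPM at 72 h, against 2.32 and 2.45 TPM at 24 h (adjusted p = 0.0737), and SNAI1 had 6.94 and 6.25 TPM at 72 h, against 5.67 and 4.92 TPM at 24 h (adjusted p = 0.203), and neither was called. LUM, a fibroblast marker, rose beside these genes, and its part was not tested.

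Of 21 kept NF-kB and chemokine genes 9 rose (42.9%, against 11.8% of all genes) and none fell, and 2 of the 9 were below 1 TPM in both 24 h libraries; the scaled values alone gave 14 rises, and 6 to 10 rose when any single library was left out. CXCL8, the chemokine interleukin-8, had 5.65 and 4.6 TPM at 72 h, against 1.51 and 1.76 TPM at 24 h, and rose by 1.32 ± 0.11 scaled (adjusted p = 1.51e-05). BIRC3, an inhibitor of apoptosis that NF-kB induces, had 8.53 and 6.45 TPM at 72 h, against 2.56 and 2.8 TPM at 24 h, and rose by 1.3 ± 0.11 scaled (adjusted p = 1.66e-05). IL23A, a subunit of interleukin-23, had 9.96 and 8.42 TPM at 72 h, against 3.99 and 3.99 TPM at 24 h, and rose by 1.14 ± 0.088 scaled (adjusted p = 9.74e-06). These levels were low, and with a minimum of 5 TPM for genes kept, 2 members rose, BIRC3 and IL23A. ISG20, an interferon-induced exonuclease, had 38.4 and 28.98 TPM at 72 h, against 16.6 and 15.5 TPM at 24 h, and rose by 1.13 ± 0.060 scaled (adjusted p = 9.7e-07).

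NOTCH1, the receptor, had 10.4 and 8.99 TPM at 72 h, against 22.4 and 20.3 TPM at 24 h, and fell, with -0.95 ± 0.075 scaled (adjusted p = 1.09e-05), and the Notch target HES5 had 2.93 and 3.12 TPM at 72 h, against 10.1 and 9.55 TPM at 24 h, and fell, with -1.33 ± 0.11 scaled (adjusted p = 1.53e-05). TGFB2, a TGF-beta ligand, had 5.8 and 4.45 TPM at 72 h, against 0.86 and 0.65 TPM at 24 h, and rose by 1.9 ± 0.11 scaled (adjusted p = 1.74e-06). ID1, a target of BMP signalling, had 49.6 and 35.3 TPM at 72 h, against 76.9 and 77.4 TPM at 24 h, and fell, with -0.75 ± 0.056 scaled (adjusted p = 7.67e-06). YAP1, the Hippo pathway coactivator, had 24.3 and 20.2 TPM at 72 h, against 47.8 and 48.3 TPM at 24 h, and fell, with -0.96 ± 0.056 scaled (adjusted p = 1.67e-06). Of the 21 kept genes of the YAP/TAZ target list most, 12, were not called. In that list 7 rose (33.3%, against 11.8% of all genes), 3 of them below 1 TPM in both 24 h libraries. Another 2 fell (9.52%, against 20.3%). Without the first and second 24 h library 4 and 5 rose, and without the first 72 h library 4 fell. ETV4, an ETS factor downstream of ERK, had 36.3 and 30.4 TPM at 72 h, against 67.8 and 65.5 TPM at 24 h, and fell, with -0.86 ± 0.054 scaled (adjusted p = 2.64e-06). Of 37 kept EGFR-MAPK and immediate early genes 8 rose (21.6%, against 11.8% of all genes) and 7 fell (18.9%, against 20.3%). LCK, a SRC-family kinase of T cells that is expressed in this line, had 44.9 and 31.7 TPM at 72 h, against 20.1 and 21.2 TPM at 24 h, and rose by 0.96 ± 0.070 scaled (adjusted p = 6.94e-06), opposite to YES1. The list used here holds SRC-family kinases and also CSK, which is not a member of that family. Of its 7 kept genes 1 rose and 4 (57.1%, against 20.3% of all genes), YES1, SRC, FYN and CSK, fell. The falls numbered 2 without the first 24 h library, where the CSK call did not hold. They numbered 3 without the second 24 h library or without any 1 of the 48 h or 0 h libraries.

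Calls in the BCL2 family were near the shares of all genes. BCL2L1, which encodes the survival protein BCL-XL, had 60.4 and 46.9 TPM at 72 h, against 103 and 99.8 TPM at 24 h, and fell, with -0.79 ± 0.044 scaled (adjusted p = 1.25e-06). BCL2L11, the death-promoting BIM, had 17.6 and 13.8 TPM at 72 h, against 8.34 and 8.41 TPM at 24 h, and rose by 0.94 ± 0.12 scaled (adjusted p = 0.000192), and BBC3, the death-promoting PUMA, had 7.17 and 6.28 TPM at 72 h, against 11.1 and 11.98 TPM at 24 h, and fell, with -0.59 ± 0.092 scaled (adjusted p = 0.000574). Of 16 kept BCL2 family genes 2 rose, PMAIP1 with BCL2L11 (PMAIP1 not without the second 24 h library, adjusted p = 0.0505), and 3 fell, BAD with BCL2L1 and BBC3. These are 12.5% and 18.8%, against 11.8% and 20.3% of all genes; 1 rose without the second 24 h library. BTG2, an antiproliferative gene, had 16.7 and 13.8 TPM at 72 h, against 6.25 and 6.86 TPM at 24 h, and rose by 1.22 ± 0.088 scaled (adjusted p = 6.32e-06), and TNFRSF10B, the death receptor DR5, had 19.9 and 15.6 TPM at 72 h, against 33.7 and 32.7 TPM at 24 h, and fell, with -0.76 ± 0.057 scaled (adjusted p = 7.68e-06).

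**Figure D4:**
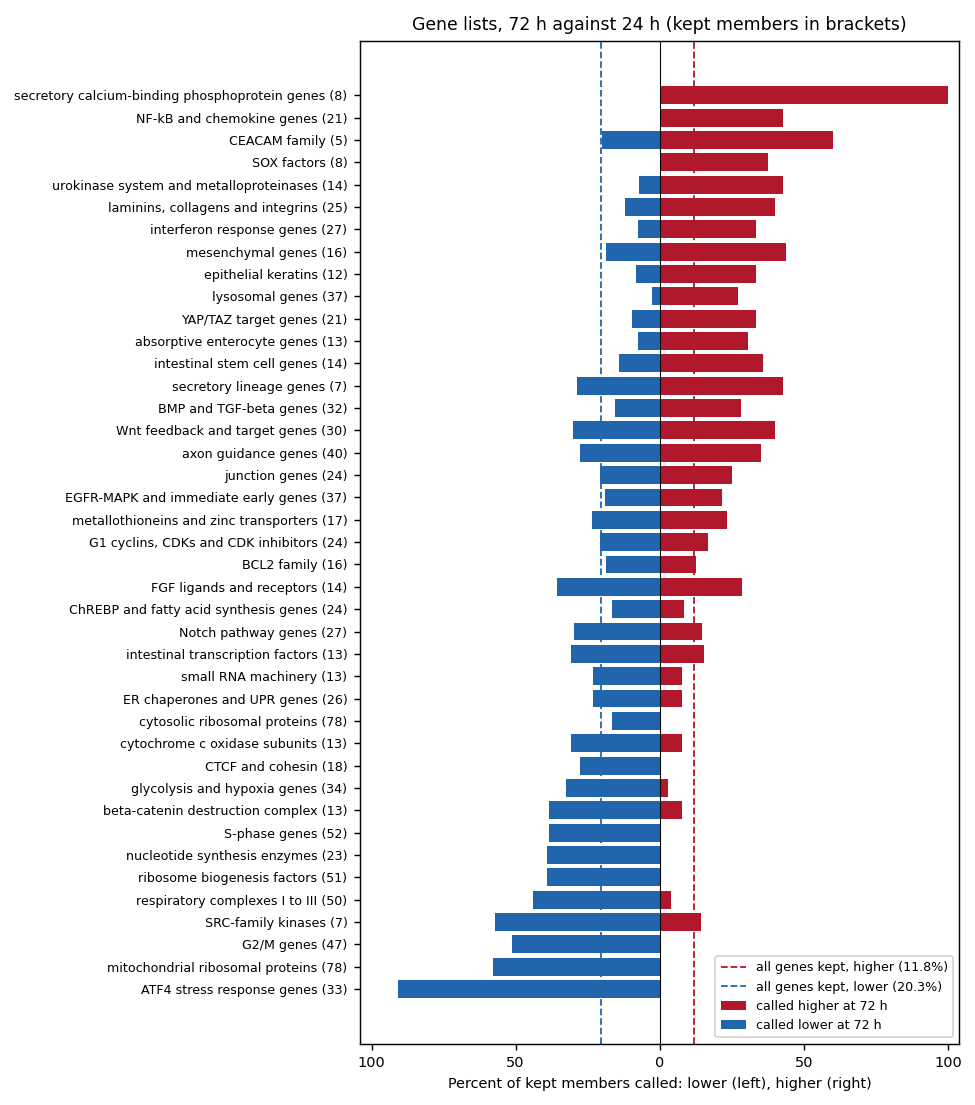
For the gene lists shown, the percent of kept members called lower (bars to the left) and higher (bars to the right) at 72 h against 24 h, with kept members in brackets and the shares over all genes, 11.8% higher and 20.3% lower, for comparison. The ATF4 response genes reach 90.9% lower, and the 8 kept calcium-binding phosphoprotein genes, most of which passed the filter through later libraries, were called higher.

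The 48 h libraries placed these changes in time. For rises, both 48 h libraries lay between the 72 h and 24 h values in 50% of genes as deposited and 72.3% scaled; for falls the shares were 37.6% and 55.3%. On the scaled values, the median risen gene had reached 38.6% of its log2 change by 48 h (quartiles 23.6% and 53.9%), and the median fallen gene 26.7% (quartiles 11.5% and 46.5%). As deposited the medians were 55.5% and 8.79%, so the size of the gap between rises and falls depends on the scaling. Between 24 h and 48 h, 455 genes rose (3.83%) and 71 fell (0.597%). Between 48 h and 72 h, 578 rose (4.86%) and 2188 fell (18.4%). On the scaled values alone the directions were nearly even, with 899 genes higher and 769 lower between 24 h and 48 h, and 2439 higher and 2312 lower between 48 h and 72 h. The one-sided counts therefore depend on the scaling. The early step called 526 genes in all; this was 140 and 167 without the first and second 24 h library, 171 and 159 without the first and second 48 h library, and 1533 and 1534 without the first and second 72 h library. The late step called 2766, or 1168 and 893 without the first and second 48 h library.

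**Figure D5:**
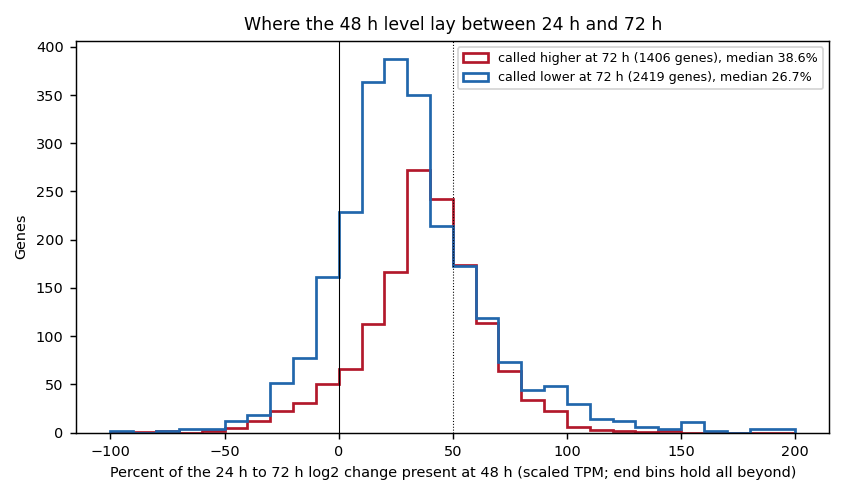
Histogram over called genes of the percent of the log2 change between 24 h and 72 h that was present at 48 h on scaled TPM, with 0% at the 24 h level and end bins that hold all values beyond. Risen genes centre on a median of 38.6% and fallen genes on 26.7%.

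A direct test compared the late step (72 h over 48 h) with the early step (48 h over 24 h), which share the 48 h libraries. In this difference 44 genes were higher (0.37%) and 296 lower (2.49%), a split that also depends on the scaling, since the scaled values alone gave 710 higher and 771 lower. The total of 340 depended on every library: it was 1278 and 1077 without the first and second 72 h library, 37 and 24 without either 48 h library in turn, 79 and 110 without either 24 h library and 151 without either 0 h library. Of the 33 kept ATF4 response genes, none was called in the early step (0.597% of all genes were called lower), 29 fell in the late step (18.4% of all genes), and 18 had a late step below the early one (2.49%). The scaled values alone gave 12 falls in the early step, against 6.47% of all genes, and 30 in the late step, against 19.4%; in TRIB3 the early change was -0.52 on that scale (adjusted p = 0.000327). TRIB3 had 277 and 285 TPM at 24 h, 201.2 and 215 TPM at 48 h and 32.4 and 23.6 TPM at 72 h, with a difference of -2.13 ± 0.086 scaled (adjusted p = 8.02e-06). CST7 had 48.6 and 45.6 TPM at 24 h, 32.8 and 29.97 TPM at 48 h and 4.53 and 3.06 TPM at 72 h, with -1.93 ± 0.13 scaled (adjusted p = 0.000217). MEF2B had 20.5 and 18.1 TPM at 24 h, 15.99 and 18.03 TPM at 48 h and 1.87 and 3.82 TPM at 72 h, with -1.83 ± 0.44 scaled (adjusted p = 0.0294). FGF21 had 7.28 and 8.05 TPM at 24 h, 7.13 and 6.75 TPM at 48 h and 1.15 and 0.76 TPM at 72 h, with -1.70 ± 0.18 scaled (adjusted p = 0.00167). CES1, a carboxylesterase, had 8.61 and 8.03 TPM at 24 h, 10.2 and 10.1 TPM at 48 h and 2.43 and 2.5 TPM at 72 h, with -1.69 ± 0.18 scaled (adjusted p = 0.00168). In TRIB3, CST7, MEF2B and FGF21 the 48 h values lay nearer to those of 24 h than to those of 72 h, and CES1 was higher at 48 h than at 24 h. These 5 genes were chosen for the size of the difference, which favours such 48 h values, so nothing is read from their 48 h position. With each library left out in turn, the MEF2B difference was called in 4 of 8 repeats and those of the other 4 genes in all 8. With no filter on low values the differences of CST7, MEF2B and FGF21 were not called (adjusted p = 0.0528, 0.143 and 0.0836), nor was that of MEF2B with no mean-variance trend (adjusted p = 0.0651).

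The next 5 genes were those whose late step exceeded the early step by most, a choice that favours genes with no early gain. In 4 of them both 48 h libraries were below both 24 h libraries, and in CALB1 the 48 h and 24 h values overlapped. FDCSP gained more in the late step than any of these 5, and ZPLD1 more than all of them but COX6B2. Both FDCSP and ZPLD1 had also risen in the early step. COX6B2 had 5.2 and 6.14 TPM at 24 h, 4.27 and 4.24 TPM at 48 h and 18.5 and 17.1 TPM at 72 h, with a difference of 2.44 ± 0.19 scaled (adjusted p = 0.000567). CALB1, the calcium buffer calbindin, had 2.03 and 2.48 TPM at 24 h, 2.42 and 2.11 TPM at 48 h and 7.22 and 7.8 TPM at 72 h, with 1.61 ± 0.31 scaled (adjusted p = 0.0137). MAPK15, an atypical MAP kinase, had 10.8 and 10.03 TPM at 24 h, 8.57 and 8.13 TPM at 48 h and 19.4 and 15.6 TPM at 72 h, with 1.54 ± 0.13 scaled (adjusted p = 0.000899). PPP1R13L, an inhibitor of apoptosis known as iASPP, had 4.14 and 4.38 TPM at 24 h, 2.66 and 3.49 TPM at 48 h and 7.28 and 5.43 TPM at 72 h, with 1.46 ± 0.24 scaled (adjusted p = 0.00686). LENG8, an RNA-processing gene, had 46.3 and 38.1 TPM at 24 h, 32.6 and 31.6 TPM at 48 h and 56.5 and 55.8 TPM at 72 h, with 1.46 ± 0.19 scaled (adjusted p = 0.00302). The rises of the last 2 at 72 h over 24 h were near the threshold: PPP1R13L was not called without the first 72 h library (adjusted p = 0.187) or without the first or second 24 h library (0.162 and 0.0995), and LENG8 without either 24 h library (0.0798 and 0.455) or any 1 of the 48 h and 0 h libraries (0.0883 to 0.0924). The step difference was called in 8 of 8 such repeats for COX6B2, 6 of 8 for CALB1 and MAPK15, 7 of 8 for PPP1R13L and 5 of 8 for LENG8. With no filter on low values that of COX6B2 alone of the 5 was called.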

How the data were processed

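Gene expression was measured by RNA-seq of rRNA-depleted total RNA in 8 SW480 libraries, 2 per group, grouped by the labels' treatment and time. The authors deposited 1 table of TPM per gene symbol and library. Per the submitters' processing notes, Trimmomatic, FastQC, STAR, SAMtools, Picard and RSEM were used with hg19; no version or annotation is stated there. TPM were used as deposited and after median-ratio scaling, as log2(TPM + 1), for genes that reached 1 TPM in 2 or more libraries. No column lacked a sample, and 18409 of 18656 symbols matched the gene name table.

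Both sets were fitted with limma 3.58.1 in R 4.3.3 (empirical Bayes with a mean-variance trend) over all 8 libraries, with Benjamini-Hochberg adjustment over 11894 genes and a threshold of 0.05 in both fits. All groups share 1 estimate of the spread, with 4 residual degrees of freedom. In the deposited fit the prior degrees of freedom were infinite, so each gene's spread was replaced by the trend over mean level; in the scaled fit they were 5.41. The median standard error of a change was 0.162 as deposited and 0.0912 scaled. The scripts were tested on simulated data. TPM hold no depth, so no counting interval could be given. Same-numbered libraries did not deviate together (r = -0.0869 between the 72 h and 24 h deviations), so the numbers were not used as pairs.

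Named genes are 9 fixed Wnt genes, the 12 largest rises and falls with at least 5 TPM and groups that do not overlap, up to 4 members per list with the smallest p, and 5 step-difference genes per direction. Other names were chosen after their values were seen, as were genes named only to account for a small count. The comparison, the lists and the rules were chosen with earlier results of these data known. Alternatives for scaling, pseudocount, filter, variance model, threshold, replicate block and left-out libraries are given in the closing section. Lists are described by counts and medians, with no set test. Promoter sequences are from RefSeq (GRCh38.p14), and no coordinates of the authors' build are printed. A few genes, and the counts of lists that rest on them, are not reported here.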

Additional observations from a re-analysis of the deposited data

Results flagged for a closer look

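The late step (72 h over 48 h) was tested against the early step (48 h over 24 h) with limma on both scales. The difference was called in 340 genes, 0.37% of all genes higher and 2.49% lower. Of the 24 largest changes, 13 were called. Another 6 genes are listed because they were chosen for a called difference, so their calls follow from that choice. Values are late minus early, scaled log2. Among the largest rises the late step was smaller in ENC1 (-0.87), SEMA3C (-0.72) and AMBN (-0.85), which gained more before 48 h than after it. Among the largest falls the late step was the steeper in CST7 (-1.93), TRIB3 (-2.13), COX7C (-1.68), CALCB (-1.48), YES1 (-1.06), MEF2B (-1.83), DDIT4 (-1.55), TRPV6 (-0.70), CCNB1IP1 (-0.89) and FGF21 (-1.70). The late step was the higher in COX6B2 (2.44), CALB1 (1.61), MAPK15 (1.54), PPP1R13L (1.46) and LENG8 (1.46), and the lower in CES1 (-1.69). With a single library left out in turn, the difference was called in 1 of 8 repeats for SEMA3C and 2 of 8 for TRPV6, in 4 of 8 for AMBN and MEF2B, in 5 of 8 for CCNB1IP1, ENC1 and LENG8, in 6 of 8 for CALB1, MAPK15 and YES1, in 7 of 8 for PPP1R13L, and in all 8 for CALCB, CES1, COX6B2, COX7C, CST7, DDIT4, FGF21 and TRIB3. With no filter on low values, which adds genes to the adjustment, 16 of these 19 differences were not called, all but TRIB3, CES1 and COX6B2; among those called in all 8 repeats the adjusted p was then 0.0528 for CST7 and DDIT4, 0.0638 for COX7C, 0.0836 for FGF21 and 0.133 for CALCB. With a pseudocount of 5 SEMA3C, AMBN and TRPV6 were not called, and with no mean-variance trend SEMA3C and MEF2B. Groups of 2 libraries are too small for a test of single outlying libraries.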

How the results depend on the processing

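Every value below replaces 1 choice of the main analysis. The deposited values alone, the pseudocounts of 0.1 and 5 and the filter over the 4 libraries compared left each count below within 1.5 times its main value. With the replicate number as a block the counts were 3722 genes called, 1377 higher and 2345 lower, 495 and 2694 in the early and late step, 307 in their difference, and 28 ATF4, 18 S-phase, 23 G2/M and 46 mitochondrial ribosomal falls and 9 NF-kB and 8 phosphoprotein rises; the block changed the call of none of the 197 named genes, and the samples share only a number. Same-numbered libraries gave deviation correlations between -0.0869 and 0.107 as deposited. The order of the counts over all genes did change. Rescaling to the same listed sum called 3189 genes higher and 2760 lower, against 1406 and 2419 in the main analysis. No call of a named gene reversed, and 158 of 189 named calls held under every alternative that could be run for the gene. For 144 of them this was all 21, and for 14 it was fewer, at least 18, since some alternatives such as a minimum TPM of 5 drop low genes.

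For 72 h against 24 h, median-ratio scaling alone gave 5957 genes called, 2965 of them higher. Quantile normalization gave 5974 called and 2816 higher, and rescaling to the same listed sum 5949 called and 3189 higher. The 4 libraries alone gave 1912 called, 845 higher and 1067 lower. A 2-fold minimum gave 377 called, 243 higher and 134 lower, and an adjusted p under 0.01 gave 2508 called and 1528 lower. A minimum TPM of 5, which tests fewer genes, gave 914 higher, and no filter 1600 lower. Without 1 library the counts ran over 1914 to 4569 called, 769 to 2466 higher and 1091 to 2756 lower.

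For the early step the count was 1668 with scaling alone, 1554 with quantile normalization, 1745 with the same sum, 84 with no filter, 241 under 0.01, and 140 to 1534 without 1 library. For the late step it was 4751, 4708, 4846, 1555, 1541 and 893 to 3430 in the same order. For the step difference it was 1481, 1401, 1412, 10, 88 and 24 to 1278, and 225 with no mean-variance trend.

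ATF4 falls numbered 11 with a 2-fold minimum and 27 to 30 without 1 library. S-phase falls numbered 13 with no filter, 6 with 4 libraries, 0 with 2-fold, 11 under 0.01 and 6 to 26 without 1 library. G2/M falls numbered 13, 8 and 1 with no filter, 4 libraries and 2-fold, and 10 to 23 without 1 library. Mitochondrial ribosomal falls numbered 27, 14 and 0 in that order, and 16 to 53 without 1 library. NF-kB rises numbered 14 with scaling alone, 16 with the same sum, 2 with a minimum TPM of 5 and 4 with 2-fold, and phosphoprotein rises 3 with a minimum TPM of 5. The cause of these shifts was not tested. The unequal 72 h libraries and 2 libraries per group limit every count here.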

Other observations

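Axon guidance genes, which also act in cell migration, divided: of 40 kept 14 rose and 11 fell, against 11.8% and 20.3% of all genes. SEMA7A, a membrane-anchored semaphorin, had 7.95 and 6.14 TPM at 72 h, against 1.53 and 1.31 TPM at 24 h, and rose by 1.84 ± 0.10 scaled (adjusted p = 1.41e-06). UNC5B, a netrin receptor, had 3.61 and 3.11 TPM at 72 h, against 15.1 and 14.6 TPM at 24 h, and fell, with -1.77 ± 0.081 scaled (adjusted p = 4.5e-07). Without the first or second 24 h library 8 and 8 rose, and without the second 7 fell. Among the intestinal factors FOXA1, a pioneer factor, had 6.11 and 4.53 TPM at 72 h, against 1.59 and 1.83 TPM at 24 h, and rose by 1.32 ± 0.11 scaled (adjusted p = 1.55e-05), while its relative FOXA3 had 5.98 and 4.27 TPM at 72 h, against 10.5 and 10.02 TPM at 24 h, and fell, with -0.79 ± 0.10 scaled (adjusted p = 0.00017). ALDH1A1, a retinaldehyde dehydrogenase used as a stem cell marker, had 10.1 and 6.67 TPM at 72 h, against 0.64 and 0.78 TPM at 24 h, and rose by 2.55 ± 0.12 scaled (adjusted p = 4.5e-07); both 24 h libraries were below 1 TPM.

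SLC39A14, a zinc and manganese importer, had 19.2 and 14.5 TPM at 72 h, against 43.6 and 45.9 TPM at 24 h, and fell, with -1.25 ± 0.056 scaled (adjusted p = 4.49e-07), while the exporter SLC30A10 had 2.94 and 2.22 TPM at 72 h, against 0.81 and 0.91 TPM at 24 h, and rose by 1.03 ± 0.11 scaled (adjusted p = 6.25e-05). In the machinery of small RNAs TNRC6A, the scaffold that links Argonaute to decay enzymes, had 22.6 and 15.8 TPM at 72 h, against 9.02 and 9.48 TPM at 24 h, and rose by 1.08 ± 0.088 scaled (adjusted p = 1.28e-05), and AGO1, an Argonaute protein, had 6.17 and 5.44 TPM at 72 h, against 10.9 and 10.4 TPM at 24 h, and fell, with -0.67 ± 0.087 scaled (adjusted p = 0.000198). Of 18 kept CTCF and cohesin genes none rose and 5 fell (27.8%, near the 20.3% of all genes), CTCF, STAG1, MAU2, PDS5A and CDCA5, or 2 and 3 without the first and second 24 h library; CTCF (0.127 and 0.0705 in turn) and STAG1 (0.0605 without the first) then missed the threshold for the adjusted p. CDCA5, which encodes sororin, had 22.5 and 16.6 TPM at 72 h, against 35.6 and 31.2 TPM at 24 h, and fell, with -0.64 ± 0.069 scaled (adjusted p = 6.94e-05). XBP1, the factor of the unfolded protein response, had 58.5 and 45.6 TPM at 72 h, against 97.01 and 98.2 TPM at 24 h, and fell, with -0.79 ± 0.052 scaled (adjusted p = 3.55e-06).

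SMIM11A, chosen after its values were seen, had 3.66 and 3.87 TPM at 72 h, against 23.4 and 4.61 TPM at 24 h. The first 24 h library stood apart, and the gene was not called (adjusted p = 0.0737).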
